A study of Mus musculus with 4 samples.

Results

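Blood vessel endothelial cells were picked out of every section by 3 transcripts that together mark the lining of blood vessels. *Pecam1* encodes the junction protein CD31, *Cdh5* encodes VE-cadherin, the adhesion molecule that holds neighboring endothelial cells together, and *Flt1* encodes a receptor for VEGF. A cell was taken as a member when it held at least 10 transcripts, when its counts of these 3 genes summed to at least 3, and when it held no transcript of *Lyve1* or *Mmrn1*, which mark lymphatic vessels. The rule took 20912 of 426404 cells with at least 10 transcripts (4.90%), out of 515791 cells in the tables, and 2517 further cells that reached the marker sum were left out because they held a lymphatic transcript. Among the members, 16866 (80.7%) held transcripts of at least 2 of the 3 marker genes and are called multi-marker members here, 2884 (13.8%) held *Flt1* alone, and 1162 (5.56%) held *Pecam1* or *Cdh5* alone. The split by number of marker genes was made after the data had been seen.

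The sections were measured by Xenium, in which probes against a panel of 328 genes are read out as single transcripts at their position in fixed tissue. The animals were adult Tet-On transgenic mice carrying TRE-*Pitx1* and *Krt5*-rtTA, so that doxycycline can switch on *Pitx1* in cells with an active *Krt5* promoter, the basal keratinocytes, but not in endothelium. Littermates received normal chow (Control) or doxycycline chow (PITX1+) for several weeks from the resting phase of the hair cycle, and full-thickness wounds of male mice were collected on day 4. Buccal mucosa, the lining of the cheek, came from male and female Control mice. Strain and exact age were not given in the sources used here. One slide held male skin, another female skin, another buccal mucosa and the last the wounds, so slide and sex coincide in skin, and slide and tissue cannot be told apart for buccal mucosa. The labels give a slide's tissue and sex but not the condition of each section, which was assigned by position: Control sections 1 and 2 (female) and 3 (male), PITX1+ sections 1 and 2 (female) and 3 and 4 (male), 7 buccal sections, and 1 Control and 2 PITX1+ wound sections. Over all cells of the male slide, *Pitx1* stood at 722 and 436 in the sections assigned to PITX1+ and at 12.6 in the Control section (counts scaled to a common total, CPM). The female slide gave 53.6 and 63.2 CPM in the sections assigned to PITX1+ and 74.7 and 54.1 in the Control sections, so there the gene did not bear out the assignment. Control sections held 474847 to 749248 transcripts, PITX1+ sections 2832562 to 5581930, buccal sections 136365 to 2368603 and wound sections 1622746 to 5430303. The study counts its unwounded PITX1+ samples as mice. Whether each Control and buccal section came from a different animal was not given in the sources used here, and p-values measure the spread between sections.

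The endothelium is the single cell layer that lines arteries, capillaries and veins. Pericytes and smooth muscle cells, together called mural cells, wrap it from outside, and their density differs along the vessel tree. Arterial endothelium is known for Notch signaling and for the connexin *Gja1* and the chemokine *Cxcl12*, while the endothelium of postcapillary venules carries the chemokine receptor *Ackr1* and the adhesion molecule *Icam1*, and is where most leukocytes leave the blood. In skin the vessels lie in the dermis and around hair follicles, since the epidermis has none, and in a wound they sprout into the new granulation tissue.

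The name of the cells was set against 5 endothelial genes that the rule had not used: *Vwf*, the clotting factor that endothelium stores, *Adgrl4*, an adhesion receptor of endothelium, *Cd34*, *Ackr1* and *Ephb4*, the ephrin receptor of veins. At least 1 of them was found in 40.4%, 44.2% and 82.4% of members in the 3 Control sections, in 21.0%, 53.7%, 86.8% and 94.0% in the 4 PITX1+ sections, in 86.8% to 94.2% in buccal sections, and in 90.3%, 73.3% and 78.0% in the wounds. Other cells of the same sections held one in 13.0% to 45.6%. Since deeper cells hold more of every gene, the same share was computed with cells of at least 20 transcripts thinned to 20, leaving out the rest. It was then 26.3%, 33.4% and 57.3% in Control members and 10.4%, 32.3%, 59.2% and 57.2% in PITX1+ members, against 5.02% to 29.4% in other cells. The section PITX1+ 1 thus stood below every Control section, and the other 3 PITX1+ sections lay within the range of the Control sections or at most just above it.

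The members with *Flt1* alone were concentrated in that section. They numbered 9, 2 and 2 in the Control sections (1.97%, 1.92% and 0.901% of members), but 1512, 466, 78 and 8 in the PITX1+ sections (64.9%, 16.2%, 5.64% and 0.497%). In buccal sections they made up 0.796% to 1.83% of members, and in the wounds 1.01% in the Control section and 19.7% and 13.1% in the PITX1+ sections. Taken over groups, 2064 of 8196 PITX1+ members (25.2%) were of this kind and 13 of 784 Control members (1.66%), and without PITX1+ 1 they were 1372 of the 18581 remaining members of all sections (7.38%).

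In PITX1+ skin and wounds these *Flt1*-only cells rarely carried the other endothelial genes. Thinned to 20 transcripts, at least 1 of the 5 independent genes was found in 1.07%, 2.42%, 3.42% and 16.6% of them in PITX1+ 1 to 4, the last value from 8 cells, and in 1.07% and 0.541% in the PITX1+ wounds. In buccal sections, with 6 to 20 such cells each, the share was 19.8% to 58.0%, and in 6 of the 7 the keratinocyte list took 0.103% to 0.423% of their RNA. The exception was buccal 1, with 20 cells and the lowest share. There the keratinocyte list took 4.28%, the leukocyte list 4.90% and the 5 endothelial genes 0.973%. The Control sections held too few for a reading, with 6.31%, 0.0% and 61.8% from 9, 2 and 2 cells. The transcripts of these 5 genes summed to 0.051% of their RNA in PITX1+ 1 and 0.059% in PITX1+ 2, while the 8 genes of the keratinocyte list (*Krt5*, *Krt15*, *Krt17*, *Krt1*, *Col17a1*, *Trp63*, *Dsg3*, *Dsc3*) took 21.2% and 17.5%. Besides *Flt1* itself, the genes furthest above the other cells of PITX1+ 1 were *Sprr1a* (5.8-fold), *Arg1* (5.7-fold), *Areg* (5.1-fold), *Krt6a* (3.8-fold), *Slpi* (3.8-fold) and *Crabp2* (3.7-fold), named after their values were seen. *Sprr1a* and *Krt6a* are genes of activated or differentiating keratinocytes, and *Areg* is an EGF receptor ligand. Of the *Flt1*-only cells of PITX1+ 1 to 3, 88.0%, 92.3% and 91.0% lay within 20 µm of an epithelial cell (a cell outside the rule with a sum of at least 3 over *Krt5*, *Col17a1*, *Trp63*, *Dsg3*, *Dsc3* and *Krt1*), and 59.6%, 53.0% and 74.4% met that epithelial sum themselves. They were also deep, with a median of 160, 159 and 163 transcripts against 32, 48 and 78 for the multi-marker members of the same sections. The data therefore go against the name for the *Flt1*-only cells of PITX1+ 1 to 3 and of the PITX1+ wounds, which are not called endothelial here. The independent genes and the keratinocyte list do not go against it for those of buccal 2 to 7, while the values of buccal 1 were mixed. Other lists still took more of their RNA than the 5 endothelial genes in most of these sections. The mural list did so in buccal 2 (5.81% against 4.21%), 4 (2.05% against 1.75%), 6 (2.13% against 1.99%) and 7 (2.60% against 1.48%). In buccal 5 the fibroblast list took 3.53% and the leukocyte list 3.24%, against 1.97%. Results below are given for all members, for multi-marker members or for both, as stated with each.

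**Figure D1:**
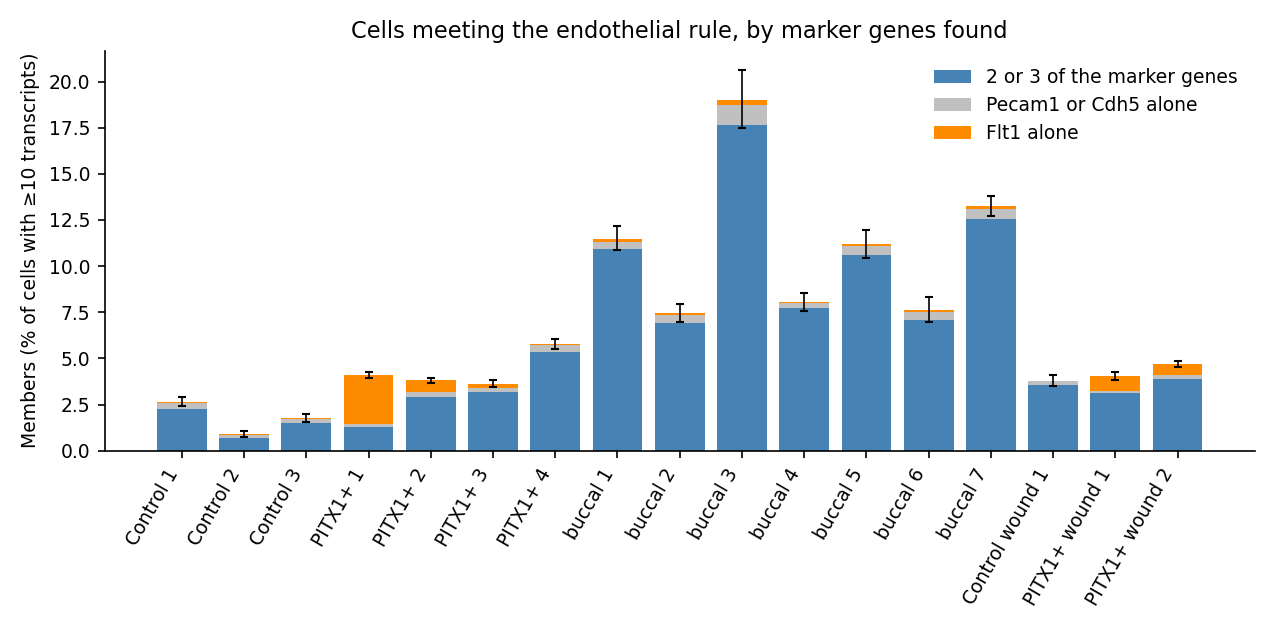
Members as a percentage of all cells with at least 10 transcripts (y axis) in each of the 17 sections (x axis), stacked into multi-marker members, *Flt1*-only cells and cells with *Pecam1* or *Cdh5* alone. Error bars are 95% exact binomial intervals of the total, which cover counting error only. *Flt1*-only cells fill 64.9% of the bar of PITX1+ 1 and 16.2% of that of PITX1+ 2, and under 2% of every Control and buccal bar.

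Multi-marker members held at least 1 of the 5 independent genes more often than other cells in 17 of 17 sections. The share was 43.3%, 48.2% and 82.9% in Control, 45.5%, 64.2%, 91.6% and 94.7% in PITX1+ sections and at least 87.1% in buccal sections and wounds. In Control 1, Control 2 and PITX1+ 1 most multi-marker members therefore held none of the 5 at this depth. Relative to all other cells of their sections, and with the sections of a group averaged, *Adgrl4* stood 18.9-fold higher in Control, 35.4-fold in PITX1+ and 25.2-fold in buccal sections, and *Vwf* 16.2-fold, 26.9-fold and 10.4-fold (CPM plus 50). *Itga1*, a collagen-binding integrin subunit, stood 6.07-fold, 7.47-fold and 9.11-fold higher, *Igfbp7*, a secreted protein of vessel walls, 5.86-fold, 7.26-fold and 6.37-fold, and *Cxcl12* 5.12-fold, 5.30-fold and 10.5-fold. *Pdgfb*, the growth factor by which endothelium recruits pericytes, stood 7.05-fold higher in Control, 4.84-fold in PITX1+ and 8.63-fold in buccal members. These folds describe cells that were chosen on endothelial genes and carry no test. Against the other cells within 25 µm, which share the same spot of tissue, *Vwf* was 1.65-fold to 26.6-fold higher, *Adgrl4* 2.11-fold to 21.3-fold, *Ackr1* 1.45-fold to 15.4-fold and *Ephb4* 2.08-fold to 6.19-fold, each in 17 of 17 sections, and *Cd34* was higher in 16 of 17. *Krt17*, a keratin of hair follicles and activated epidermis, was lower than in those neighbors in 17 of 17 sections, and *Col1a1*, the main fibroblast collagen, in 16 of 17. Genes of mural cells and muscle were higher in the members than in those neighbors, *Myh11* in 17 of 17 sections by 1.03-fold to 5.30-fold, *Acta2*, *Pdgfrb* and *Des* in 16 of 17 and *Abcc9* in 15 of 17. All these neighbors included members with 1 marker gene, *Flt1*-only cells among them. With all members set against their own neighbors, *Krt17* was higher in 2 of 17 sections, PITX1+ 1 (1.21-fold) and PITX1+ wound 2 (1.17-fold).

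Transcripts of other cell types were present too. The 5 independent endothelial genes took 1.95%, 3.18% and 4.67% of all panel transcripts of multi-marker members in Control and 1.60%, 2.41%, 5.44% and 4.55% in PITX1+ sections. The keratinocyte list took 0.629%, 0.408% and 0.140% in Control and 8.68%, 2.65%, 0.922% and 0.565% in PITX1+ sections, against 0.116% to 0.410% in buccal sections. The mural list (*Acta2*, *Myh11*, *Cnn1*, *Pdgfrb*, *Abcc9*) took 2.61%, 4.00% and 2.86% in Control and 1.09%, 1.91%, 2.26% and 2.12% in PITX1+ sections. The fibroblast list took 3.28%, 5.22% and 3.45% in Control and 0.890% to 1.64% in buccal sections, so in Control 1 and 2 the fibroblast and the mural list each took more than the 5 endothelial genes. The leukocyte list took 2.76%, 1.27% and 2.89% in Control and 0.445% to 0.790% in buccal sections. It too took more than the 5 endothelial genes in Control 1, and the keratinocyte list did so in PITX1+ 1 and 2. Over all members of PITX1+ sections, the fibroblast list took 0.477%, 4.85%, 3.22% and 3.88% and the leukocyte list 0.435%, 1.76%, 2.16% and 1.81%. The 5 endothelial genes took 0.246%, 1.44%, 4.81% and 4.43% there, less than either list in PITX1+ 1 and 2. Lymphatic transcripts were at 0 because the rule excluded them. Cells just inside the marker sum also held the independent genes more often than cells just outside it in 16 of 17 sections, at 37.4% with a sum of 3 against 30.7% with a sum of 2 in Control 1, for example, and 87.0% against 73.6% in PITX1+ 4. The exception was PITX1+ 1, with 22.5% against 23.4%.

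The first question was how much endothelium the 3 tissues held. In Control sections 1 to 3 the members numbered 458, 104 and 222, and made up 2.64%, 0.883% and 1.75% of cells. In PITX1+ sections 1 to 4 they numbered 2331, 2872, 1382 and 1611, or 4.07%, 3.82%, 3.61% and 5.75% of cells. Every PITX1+ section thus lay above every Control section, with means of 1.76% ± 0.880 (SD, n = 3) and 4.31% ± 0.978 (SD, n = 4), and the difference was 2.18 percentage points within the female and 2.93 within the male slide. The exact two-sided permutation test gave p = 0.0571, the smallest that 3 against 4 sections allow (adjusted p = 0.114 over 12 compared values). Counting only multi-marker members the shares were 2.25%, 0.705% and 1.52% against 1.27%, 2.89%, 3.18% and 5.35%, with PITX1+ 1 inside the Control range, and the exact permutation test gave p = 0.171 (adjusted p = 0.314). A cell also meets the rule more easily when it is deeper, and members held a median of 34, 25 and 50.5 transcripts in Control and 115, 53, 79 and 112 in PITX1+ sections. With cells of at least 20 transcripts thinned to 20, the share was 0.742% ± 0.420 (SD, n = 3) in Control and 1.03% ± 0.279 (SD, n = 4) in PITX1+ sections (exact permutation p = 0.286, adjusted p = 0.429). At this depth the difference was thus within the spread between sections, in a test that took no account of the slide. Within the female slide the difference was 0.307 percentage points and within the male slide 0.340. Cells with fewer transcripts were left out. This kept 395 of 458, 72 of 104 and 199 of 222 members in Control sections. In PITX1+ sections it kept 2165 of 2331, 2730 of 2872, 1348 of 1382 and 1599 of 1611. Thinned to 30 transcripts the share was 1.11% against 1.76%, with 3 of 4 PITX1+ sections above every Control section (exact permutation p = 0.171).

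Per area the contrast was wider. Control sections held 76.1, 19.4 and 41.3 members per mm² of tissue and PITX1+ sections 240, 243, 184 and 230, without overlap (exact permutation p = 0.0571, the smallest possible, adjusted p = 0.114). For multi-marker members PITX1+ sections held 74.7, 184, 161 and 214 per mm² against a Control mean of 38.7 ± 24.8 (SD, n = 3; exact permutation p = 0.0571, adjusted p = 0.137). Cells of all kinds were also denser in PITX1+ skin, at 3994 to 6361 per mm² against 2194 to 2882 in Control skin, and their part in the density of members was not tested. The density counts members at full depth, where deeper cells meet the rule more easily, and was not computed at equal depth. The part of depth in this contrast was not tested.

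Members were a larger share of cells in buccal mucosa than in Control skin. They numbered 457 to 2014 per section, fewer in most sections than in PITX1+ skin, and made up 7.45% to 19.0% of cells, with a mean of 11.2% ± 4.13 (SD, n = 7) against 1.76% ± 0.880 (SD, n = 3) in Control skin, and all 7 sections lay above every Control section (exact permutation p = 0.0167, the smallest that 3 against 7 allow, adjusted p = 0.0667). Multi-marker members alone gave 10.5% ± 3.82 (SD, n = 7). At equal depth the share was 2.56% ± 1.36 (SD, n = 7) against 0.742% ± 0.420 (SD, n = 3), again without overlap and with the same exact permutation p. The density, counted at full depth, was 317 to 642 members per mm². In the wounds, members made up 3.79% of cells (95% exact binomial interval 3.52 to 4.08) in the Control section and 4.05% (3.85 to 4.25) and 4.71% (4.55 to 4.88) in the PITX1+ sections, or 170, 256 and 422 per mm². With 1 Control wound section no test was possible. Counting multi-marker members the wound shares were 3.53%, 3.10% and 3.86%, so the PITX1+ wounds then lay on either side of the Control wound.

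The distance of members to epithelium was compared as well. The median distance from a multi-marker member to the nearest epithelial cell was 146, 175 and 80.4 µm in Control and 29.3, 29.7, 29.0 and 35.8 µm in PITX1+ sections, with means of 134 ± 48.5 µm (SD, n = 3) and 31.0 ± 3.21 µm (SD, n = 4). The groups did not overlap (exact permutation p = 0.0571, the smallest possible, adjusted p = 0.137). Deeper cells reach the epithelial sum more easily. Of cells outside the rule, 26.0%, 29.2% and 23.3% met it in Control and 27.5%, 34.4%, 50.5% and 46.4% in PITX1+ sections. The part of depth and of the amount of epithelium in the distances was not tested. Other cells that were not epithelial lay 45.7 to 60.6 µm from epithelium in Control and 19.9 to 31.0 µm in PITX1+ sections. The members were thus farther from epithelium than those other cells in all 7 skin sections. Over all members, 6 of 7 buccal sections, at 42.4 to 79.9 µm, lay below every Control section (83.1, 143 and 175 µm), while buccal 3 lay at 382 µm, so that the groups overlapped (exact permutation p = 0.617, adjusted p = 0.740). In buccal 3 the other cells also lay at a median of 335 µm, and 0.555% of them met the epithelial sum, against 19.6% to 44.5% in the other 6 buccal sections.

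**Figure D2:**
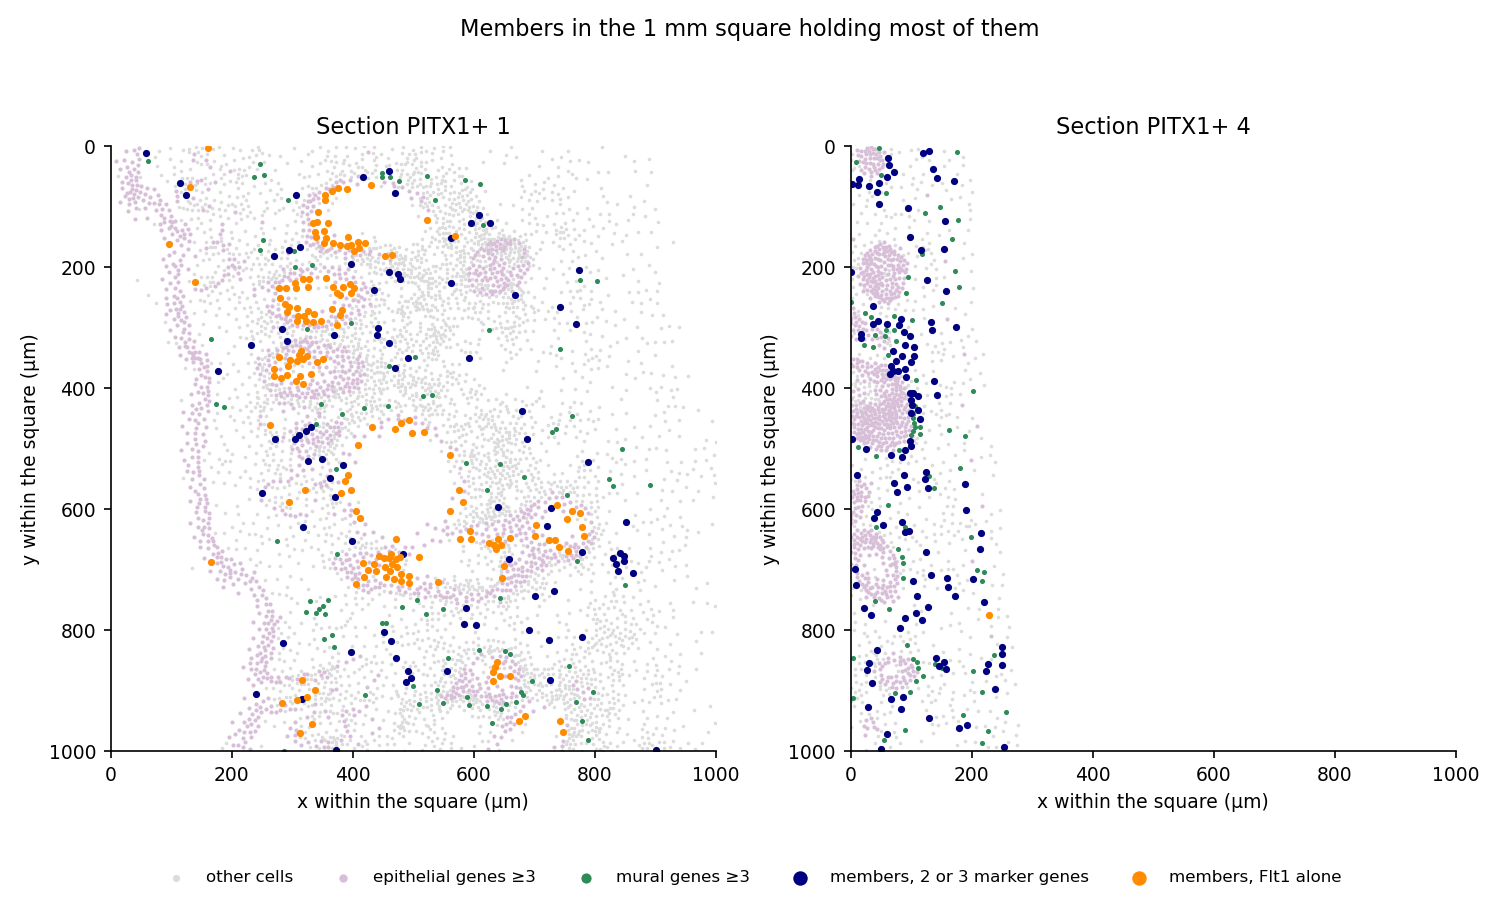
Positions of cells in the square of 1 mm by 1 mm that holds the most members in PITX1+ 1 (left) and PITX1+ 4 (right), with x and y in µm. Epithelial, mural and member cells are colored and all other cells are grey. The square of PITX1+ 1 holds 168 *Flt1*-only cells, lying along the epithelium, and 87 multi-marker members, while that of PITX1+ 4 holds 1 and 127.

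Multi-marker members formed strings in which each cell lay within 20 µm of the next. The share that belonged to strings of at least 5 was 6.15%, 0.0% and 2.59% in Control, 3.03%, 16.2%, 22.4% and 15.1% in PITX1+, 14.3% to 34.0% in buccal sections and 40.6%, 28.9% and 50.3% in the wounds. Those with no other member within 20 µm made up 62.6%, 91.6% and 72.5% in Control sections, 72.7%, 42.9%, 41.9% and 44.1% in PITX1+ sections, and only 25.1%, 29.1% and 16.3% in the wounds. Density alone changes such shares, and its part was not tested.

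Mural cells stood beside multi-marker members more often than beside other cells in all 7 unwounded skin sections and in the wounds. A mural cell was defined as a cell outside the rule with a sum of at least 3 over *Acta2* and *Myh11*, the contractile proteins of smooth muscle, and *Pdgfrb* and *Abcc9*, which mark pericytes. One lay within 20 µm of 23.6%, 19.3% and 29.5% of multi-marker members in Control sections, 23.0%, 33.2%, 49.8% and 44.2% in PITX1+ sections, 25.2% to 55.8% in buccal sections and 65.8%, 60.1% and 73.1% in the wounds. The excess over other cells was computed with every cell outside the multi-marker set free to count as a mural or other cell, so it differs slightly from a difference of these shares. It was 14.2, 12.9 and 21.9 percentage points in Control and 9.65, 19.2, 27.4 and 20.1 in PITX1+ sections (exact permutation p = 0.629 with n = 3 and 4). Over all members the excess was -3.34 points in PITX1+ 1, the section of the *Flt1*-only cells, and 11.9 to 23.8 in the other 6 skin sections (exact permutation p = 0.857, adjusted p = 0.857). Buccal members had an excess of 4.14 to 25.6 points (exact permutation p = 0.55, adjusted p = 0.733), and the wounds 43.5 points in Control and 31.1 and 32.4 in PITX1+ for multi-marker members.

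The venular gene *Ackr1* was compared at equal depth. Thinned to 20 transcripts, it was found in 1.58%, 4.80% and 6.14% of multi-marker members in Control and in 3.68%, 3.02%, 7.30% and 7.41% in PITX1+ sections. The groups overlapped (exact permutation p = 0.514 with n = 3 and 4), and the male sections were above the female ones in both conditions. Over all members buccal sections gave 2.43% ± 0.751 (SD, n = 7), inside the Control range of 1.65% to 6.13% (exact permutation p = 0.25, adjusted p = 0.429), and the wounds gave 4.66%, 4.17% and 4.53%.

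The second question was which genes differed in endothelium between PITX1+ and Control skin. Counts were summed over the members of each section and fitted with edgeR's quasi-likelihood test with the slide as covariate, leaving out the 5 genes of the rule. Levels are CPM of the other 323 genes. Over all members, 50 of 304 genes tested were higher in PITX1+ sections after Benjamini-Hochberg adjustment (16.4%) and 0 were lower, with 78 genes under an unadjusted p of 0.05 and 58 higher and 15 lower by DESeq2. The genes that led were not endothelial ones. *Sprr1a*, a cornified envelope precursor, was at 0 in all 3 Control sections and at 38827, 21410, 6018 and 258 CPM in the PITX1+ sections, at least 173-fold higher over the floor of 3 counts in the Control group (edgeR adjusted p = 0.00029). *Krt5*, the basal keratin, stood at 905, 742 and 338 CPM against 11934, 2937, 5801 and 1490 (log2 fold change 4.05, SE 0.86, edgeR adjusted p = 0.00139). *Krt6a*, *Dsc3*, *Saa3*, *S100a8*, *Lrrc15* and *Cidea* were also higher without overlap (edgeR adjusted p = 0.00029 to 0.0334). The call of *Cidea* held in 7 of 17 alternatives and that of *Lrrc15* in 10 of 16. *Saa3* held in 10 of 12, and *Krt6a*, *Dsc3* and *S100a8* in 13 of 17 each. Of the keratinocyte list 5 of 8 genes were higher and none of the 5 endothelial genes passed the threshold, with log2 fold changes of -0.82 to -0.05. These 5 genes took 0.246%, 1.44%, 4.81% and 4.43% of the transcripts of all members in PITX1+ sections and 1.78%, 2.79% and 4.69% in Control sections. The order of the 4 PITX1+ sections in *Sprr1a* was also the order of their *Flt1*-only shares. The *Flt1*-only cells are among the members summed here, and their part in these calls was not tested.

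Within multi-marker members 5 of 255 genes were higher (1.96%) and 0 lower, with 58 under an unadjusted p of 0.05. All 5 are genes of keratinocytes or hair follicle epithelium. The count was 0 without the slide covariate, without Control 1 or without Control 2, and 17 without Control 3. *Krt17* stood at 2313, 2347 and 0 CPM in Control and at 68540, 20873, 4273 and 1677 in PITX1+ sections (log2 fold change 4.56, SE 0.68, edgeR adjusted p = 0.0135). The other 4, *Krt79*, *Dsc1*, *Crabp2* and *Lor*, which were named after their values were seen, had log2 fold changes of 4.02, 5.15, 4.32 and 5.05 (edgeR adjusted p = 0.0238 to 0.0256). In none of the 5 were the groups apart, since at least 1 PITX1+ section, of the male slide, lay within the Control range. The part of the keratinocyte transcripts given above in these calls was not tested, and *Krt17* is itself on the keratinocyte list. Of the 50 genes higher over all members, 37 were tested in multi-marker members and all 37 had the same sign there, 5 of them past the threshold, with a median log2 size of 2.67 against 4.89. Multi-marker members are a subset of all members, so the shared sign is no independent support.

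The endothelial genes themselves did not pass the test in either set. *Vwf* stood at 8023, 17371 and 11730 CPM in multi-marker members of Control and at 7839, 10309, 12917 and 10826 in those of PITX1+ sections, with overlapping groups (log2 fold change -0.25, SE 0.34, edgeR adjusted p = 0.734). *Adgrl4* stood at 1156, 3756 and 10973 CPM against 885, 1334, 10464 and 10292, and *Cd34* at 5276, 4695 and 18068 against 3935, 7578, 23411 and 17813. In both genes the male sections of either condition lay above all female sections. *Ackr1* stood at 1012, 2817 and 2838 CPM against 1525, 1615, 4866 and 4268, and *Ephb4* at 6288, 7981 and 7000 against 3355, 5917, 6686 and 4924. The median log2 fold change of the 5 was -0.25 beside 0.20 over all genes tested. In the test of whether the change over all members differed between the male and the female slide, 0 of 304 genes passed by edgeR, with 25 at an unadjusted p under 0.05, and 0 by DESeq2. Multi-marker members gave 0 calls as well. On data simulated from multi-marker members (255 genes) this test missed most genes whose changes differed 4-fold, so a count of 0 says little. The test over all members was not simulated.

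**Figure D3:**
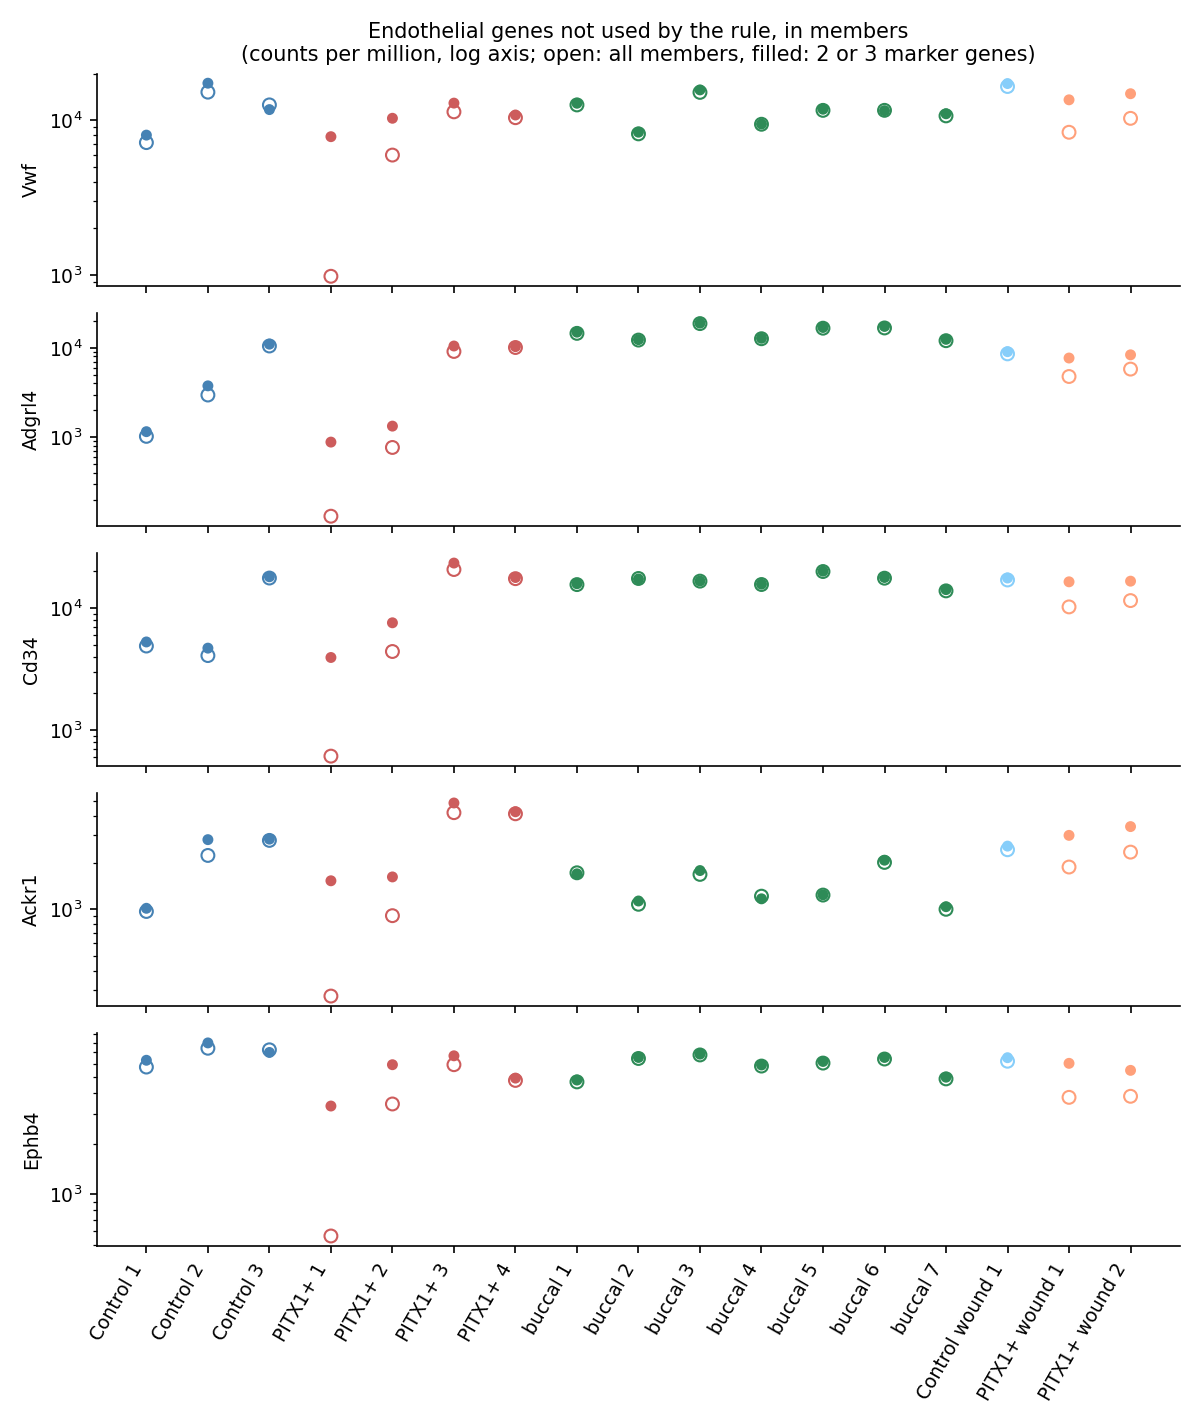
Levels of 5 endothelial genes that the rule did not use (CPM, log axis) in each section of Control skin, PITX1+ skin, buccal mucosa and the wounds, with open points for all members and filled points for multi-marker members. The open points of PITX1+ 1 lie far below its filled ones (*Vwf* 982 against 7839 CPM), and filled points of Control and PITX1+ skin overlap for every gene.

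Genes of vascular signaling were read by list in multi-marker members, and none of them passed. Of the Notch and arterial list (median log2 fold change 0.11, 5 genes), *Gja1* came nearest, at 1879, 0 and 3122 CPM in Control and 5094, 2895, 7932 and 7283 in PITX1+ sections (log2 fold change 1.44, SE 0.51, edgeR adjusted p = 0.137). Over all members *Gja1* passed, at 1870, 0 and 3123 CPM against 7926, 3359, 9455 and 7262 without overlap (log2 fold change 2.63, SE 0.82, edgeR adjusted p = 0.0277). That call held in 9 of 17 alternatives (log2 fold change 1.44 to 3.49). Keratinocytes also express this connexin. *Cxcl12* stood at 16697, 18779 and 26393 CPM against 9029, 11734, 20444 and 21145 (log2 fold change -0.60, edgeR adjusted p = 0.253), and *Notch1* at 4698, 5164 and 5014 against 5490, 5717, 4935 and 4998, with overlapping groups in both.

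The angiogenic list had a median log2 fold change of 0.12 (8 of 9 genes tested), with *Thbs1*, an antiangiogenic matrix protein, at 1.01 (edgeR adjusted p = 0.215), *Itgb3*, the integrin subunit of sprouting endothelium, at 0.90 (edgeR adjusted p = 0.248) and *Pdgfb* at -0.14 (edgeR adjusted p = 0.868). The BMP and TGF-beta list had a median of -0.37 (10 of 11 genes), the basement membrane and integrin list 0.08 (9 genes), the IGF list -0.19 (10 genes), the leukocyte recruitment list 0.28 (8 genes), the immediate early list -0.27 (7 genes), the mural list -0.75 (5 genes), the fibroblast list 0.00 (5 genes), the leukocyte list 0.02 (8 genes) and the Schwann cell list -0.29 (3 of 4 genes). The keratinocyte list stood apart in value, with a median of 2.30 and 8 of 8 genes above 0, 1 of them past the threshold. The cell cycle list had a median of 1.27 with 9 of 10 genes above 0 and none past the threshold. In it *Hist1h1b*, a histone made in S phase, stood at 795, 0 and 1703 CPM in Control and 1068, 2777, 6469 and 5247 in PITX1+ sections (log2 fold change 1.71, SE 0.55, edgeR adjusted p = 0.113), and *Prc1*, a protein of the dividing cell's midzone, at 723, 0 and 189 against 763, 1497, 2483 and 1941 without overlap (log2 fold change 1.88, SE 0.73, edgeR adjusted p = 0.165). The 10 cell cycle genes took 0.564%, 0.571% and 0.489% of RNA in Control and 0.713%, 1.24%, 1.79% and 1.64% in PITX1+ multi-marker members. In all other cells the list took 1.08%, 0.852% and 0.881% in Control and 0.885%, 1.38%, 2.30% and 2.44% in PITX1+ sections, so it was also higher there in 3 of 4 PITX1+ sections than in every Control section. The part of transcripts of other dividing cells was not tested.

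Each change was also set against the change in the cells within 25 µm of a member, as an interaction in the edgeR fit with the section as block. Over all members 0 of 322 genes differed (0.0%), with 19 at an unadjusted p under 0.05 and 3 calls by DESeq2. With a further term that let members and neighbors differ by slide, 19 differed, all above 0. For multi-marker members 6 of 321 differed (1.87%), and 20 with that term. *Vwf* was at a mean of 12375 CPM in Control and 10473 in PITX1+ multi-marker members, while in their neighbors it was at 3430 and 815 (difference of log2 changes 2.08, SE 0.31, edgeR adjusted p = 0.00476). The neighbor levels were 2483, 4757 and 3050 CPM in the 3 Control sections and 852, 841, 695 and 870 in the 4 PITX1+ sections, without overlap. *Cd34* went from 9347 to 13184 CPM in members and from 7436 to 4448 in neighbors (1.54, SE 0.30, edgeR adjusted p = 0.0239), and *Igfbp7* from 34140 to 57965 in members and from 16846 to 18220 in neighbors (1.06, SE 0.19, edgeR adjusted p = 0.0149). For these 3 genes the gap between members and neighbors was thus wider in PITX1+ than in Control sections. Neighbors include cells just below the marker sum of 3. Those of multi-marker members also include members with 1 marker gene, *Flt1*-only cells among them. Such members numbered 68, 21 and 29 in the Control sections and 1605, 696, 166 and 113 in the PITX1+ sections. Cells with a sum of 2 numbered 401, 182 and 182 in the Control sections, beside 458, 104 and 222 members. In the PITX1+ sections they numbered 1596, 1736, 711 and 602, beside 2331, 2872, 1382 and 1611 members. The part of cells of either kind, and of depth, in the neighbor levels was not tested.

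The remaining 3 genes were named after their values were seen. *Des*, the intermediate filament of muscle, was lower in PITX1+ members and lower still in their neighbors (1.33, SE 0.19, edgeR adjusted p = 0.00476). The fatty acid binding protein *Fabp5* (-1.48, SE 0.28, edgeR adjusted p = 0.0175) and the fatty acid elongase *Elovl6* (-1.41, SE 0.30, edgeR adjusted p = 0.0336) differed the other way, with *Fabp5* at means of 4810 and 6566 CPM in members and 3534 and 13356 in neighbors.

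Members differ among themselves along the vessel tree, and the venular gene *Ackr1* was used to look at this without comparing conditions. In the 8 sections with at least 50 multi-marker members that held an *Ackr1* transcript (95 to 389 cells, at least 20 transcripts each), those cells were set against the multi-marker members without one. The sections were PITX1+ 2 to 4, buccal 1 and 7 and the wounds. No unwounded Control section was among them, as these held 11, 5 and 19 such cells. The median depth with and without *Ackr1* was similar, at 56.0 to 143.5 transcripts against 49.0 to 117.0. *Vwf* was higher in the *Ackr1* cells in 8 of 8 sections, by a median of 2.11 on the log2 scale (median 35573 against 8977 CPM). *Icam1* was higher in 8 of 8 by 1.94 (7382 against 1698 CPM), and so were *Il6st*, the shared receptor chain of interleukin 6 family cytokines, by 1.65 (27986 against 9897 CPM), the interleukin 1 receptor *Il1r1* by 1.29, and *Bmp4* by 1.61. The smooth muscle genes *Cnn1*, *Acta2* and *Myh11* were also higher in 8 of 8, by 0.93, 0.86 and 0.81, and the venous receptor *Ephb4* by 0.67.

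*Pdgfb* went the other way in all 8 sections, by -0.91 (3289 against 6298 CPM), as did the pericyte channel subunit *Abcc9* by -0.89 and *Itgb5* by -0.69. *Igfbp3* was lower in 6 of 8 sections and *Igf2* in 7 of 8, by medians of -1.29 and -1.84. *Krt17* was lower in 8 of 8, by -1.69. These values describe cells sorted by 1 of their own transcripts and carry no test.

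**Figure D4:**
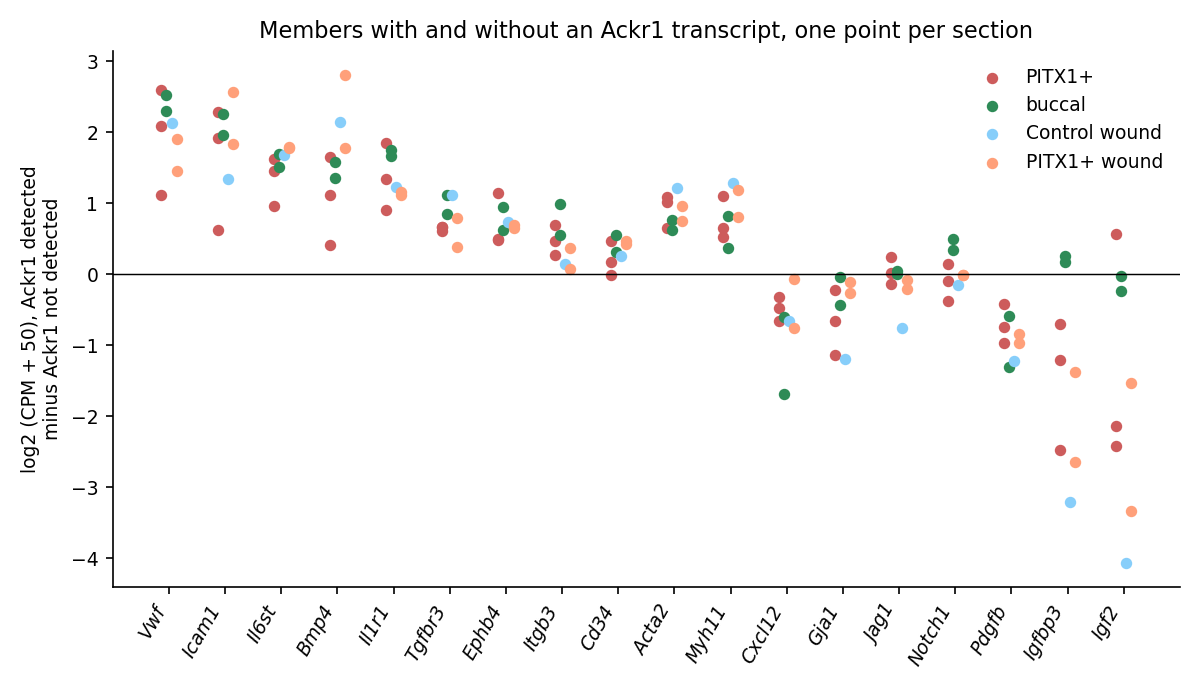
Difference on the log2(CPM + 50) scale between multi-marker members with and without an *Ackr1* transcript (y axis) for 18 genes (x axis), with a point for each of 8 sections, colored by group. Unwounded Control skin is not among the sections. All points for *Vwf*, *Icam1* and *Il6st* lie above 0 and all points for *Pdgfb* below it.

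Multi-marker members with a mural cell within 20 µm were set against those without in the same way, in 16 sections. The smooth muscle genes *Cnn1*, *Myh11* and *Acta2* were higher beside mural cells in 16 of 16, by medians of 1.66, 1.55 and 1.53 on the log2 scale. The Notch ligand *Jag1* was higher in 16 of 16 by 1.03 (4820 against 1897 CPM) and *Itga5* in 16 of 16 by 0.47. *Vwf* was higher in 15 of 16 by 1.00 and *Igf2* in 14 of 16 by 1.06. *Jun* was lower in 16 of 16 by -0.32, and *Abcc9* was lower in 14 of 16. *Acta2*, *Myh11* and *Abcc9* are among the 4 genes that define the mural cells, and the part of transcripts of the adjoining cell in these values was not tested.

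The third question was how endothelium of buccal mucosa differs from that of Control skin. Over all members 25 of 227 genes were higher in buccal sections (11.0%) and 21 lower (9.25%). In multi-marker members 18 of 217 were higher (8.29%) and 27 lower (12.4%). The sets are largely the same cells, as multi-marker members were 79.8% to 86.9% of Control and 92.7% to 95.8% of buccal members. Their likeness is therefore no independent support. In all, 39 genes were called in both, 46 of 46 calls of all members kept their sign in multi-marker members, and the median log2 size was 2.02 in either. Under library size in place of TMM scaling the split of all members moved from 25 higher and 21 lower to 18 and 37, with the median of all genes at -0.12 in place of 0.20, so small differences have no firm direction. The values below are of multi-marker members.

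*Igf2*, the insulin-like growth factor, stood at 1590, 469 and 1797 CPM in Control sections and from 6174 to 18456 with a median of 10805 in the 7 buccal sections (log2 fold change 3.00, SE 0.47, edgeR adjusted p = 0.00139). It had no overlap between groups. It was the 1 gene called of 10 in the IGF list. Of the BMP and TGF-beta list 3 of 10 genes tested were higher, beside 8.29% of all genes, and none lower, with a median of 0.68 beside 0.04 over all genes. The receptor *Bmpr1a* stood at 651, 469 and 1797 CPM against 3815 to 5383, median 4856 (log2 fold change 2.20, SE 0.40, edgeR adjusted p = 0.00267). *Bmpr2*, its partner receptor, stood at 4409, 2817 and 5108 CPM against 7534 to 9300, median 8130 (log2 fold change 1.05, SE 0.23, edgeR adjusted p = 0.0063). The ligand *Bmp4* stood at 651, 469 and 946 CPM against 999 to 1826, median 1633, a narrower gap (log2 fold change 1.10, SE 0.35, edgeR adjusted p = 0.0456). None of these 3 genes overlapped between groups. Control 2 held 83 multi-marker members with 2450 transcripts in all, so its 469 CPM in *Igf2*, *Bmpr1a* and *Bmp4* rests on very few. In *Bmp4* the highest Control value, 946 CPM, also lay close to the lowest buccal value, 999. The call of *Bmp4* was the least stable of the 3, past the threshold in 6 of 19 alternatives to the fit over all members (log2 fold change 0.16 to 1.67) and lost without Control 1 or without any 1 of the 7 buccal sections. The BMP target genes *Id1* and *Id3* did not pass, with log2 fold changes of 0.59 and 0.76 (edgeR adjusted p = 0.457 and 0.169).

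*Pdgfa*, a growth factor for fibroblasts, stood at 506, 0 and 757 CPM in Control and 1310 to 2707, median 2504, in buccal members (log2 fold change 2.27, SE 0.48, edgeR adjusted p = 0.00543). *Timp3*, the matrix-bound inhibitor of metalloproteinases that also blocks VEGF signaling, stood at 8240, 5634 and 15987 CPM against 27734 to 46798, median 31785 (log2 fold change 1.79, SE 0.34, edgeR adjusted p = 0.00292). Of the basement membrane and integrin list *Lama3* (log2 fold change 1.91, SE 0.53, edgeR adjusted p = 0.024) and *Itgb1* (0.63, SE 0.19, edgeR adjusted p = 0.0369) were higher and *Lamc1* lower (-1.04, SE 0.27, edgeR adjusted p = 0.0195), 9 genes being tested. Over all genes 8.29% were higher and 12.4% lower. In the alternatives to the fit over all members, *Lamc1* stayed past the threshold in 7 of 19 (-1.19 to -0.47) and lost its call without Control 1, Control 2 or any buccal section but the third, and *Itgb1* stayed past it in 12 of 19. Outside the lists the transcription factors *Cebpg* (1.99) and *Ppara* (1.77), the membrane-shaping *Rtn4* (1.28) and the small GTPase *Arf6* (1.40) were higher without overlap (edgeR adjusted p = 0.00204 to 0.00761), with *Rtn4* and *Arf6* named after their values were seen. *Krt4*, a keratin of the oral lining, was at 0 in all Control sections and at 437 to 3827 CPM in buccal members, at least 22.9-fold higher over the floor of 3 counts, and *Mt4*, a metallothionein of stratified epithelium, was also at 0 in all Control sections and at 87.4 to 1518 CPM in buccal members, at least 6.14-fold higher (edgeR adjusted p = 0.0206). *Krt6a* stood at 72.3, 0 and 0 CPM, from 1 transcript, against 197 to 429 (edgeR adjusted p = 0.0144). These 3 epithelial genes led the higher calls without overlap by fitted change, while the keratinocyte list had 0 of 6 tested genes called. Over all members *Sprr1a*, *Cebpb* and *Angptl1* were also among the 10 largest (edgeR adjusted p = 0.0451, 0.0448 and 0.0111), and *Angptl1* was called with overlap in multi-marker members. In the alternatives to the fit over all members these calls held in 5 of 14, 6 of 19 and 17 of 19, in the order given.

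Leukocyte genes were among those lower. Of the leukocyte list 5 of 7 tested genes were lower, beside 12.4% of all genes, and none higher, with a median log2 fold change of -1.73. The complement gene *C1qa* stood at 12866, 4225 and 5298 CPM in Control and 541 to 1055, median 720, in buccal members (log2 fold change -3.22, SE 0.32, edgeR adjusted p = 3.94e-05), and the macrophage receptors *Csf1r* (-2.64) and *Mrc1* (-2.49) moved with it (edgeR adjusted p = 0.000681 and 0.00139). These 3 genes are made by macrophages, and in all other cells the leukocyte list took 1.40% to 4.26% of RNA in Control sections and 0.426% to 2.08% in buccal sections. *Col1a1*, made by fibroblasts, stood at 26093, 53521 and 28853 CPM against 2776 to 5941, median 3685 (log2 fold change -3.06, SE 0.26, edgeR adjusted p = 1.64e-05). The chemokine *Ccl8* (-3.21), the lectin receptor *Cd209f* (-3.00), the anchoring collagen *Col7a1* (-2.54) and the membrane metalloproteinase *Mmp14* (-2.19) were lower without overlap as well (edgeR adjusted p = 0.000936 to 0.0063).

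*Fabp5*, a fatty acid binding protein found in capillary endothelium and in keratinocytes, stood at 11420, 2347 and 662 CPM in Control and 238 to 641, median 386, in buccal members (log2 fold change -3.41, SE 0.59, edgeR adjusted p = 0.00204). *Angptl4*, an inhibitor of lipoprotein lipase, stood at 11276, 4695 and 1703 CPM against 54 to 2854, median 157, with overlap (log2 fold change -3.52, SE 1.04, edgeR adjusted p = 0.0322), a call held in 10 of 19 alternatives. *Il1r1* stood at 7806, 7512 and 3500 CPM against 1401 to 3110, median 1687 (log2 fold change -1.51, SE 0.29, edgeR adjusted p = 0.00349). *Itgb3* stood at 1735, 3286 and 946 CPM against 333 to 576, median 488 (log2 fold change -1.88, SE 0.39, edgeR adjusted p = 0.00494). The invariant chain *Cd74* (-1.71) and the stress-responsive *Atf3* (-3.04) were lower without overlap (edgeR adjusted p = 0.00267 and 0.00167), and *Top2a*, a gene of dividing cells, was lower with overlap (-2.85, edgeR adjusted p = 0.00722). Of the 45 genes called, the groups were apart in 16 of those higher and 17 of those lower. Over all 217 genes tested, called or not, the sections were apart for 23 with higher (10.6%) and 24 with lower values (11.1%).

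The endothelial list had 0 of 5 genes called and a median of 0.03. *Adgrl4* came nearest, at 1156, 3756 and 10973 CPM in Control and 12321 to 18842, median 14937, in buccal members without overlap (log2 fold change 1.52, SE 0.53, edgeR adjusted p = 0.0622). *Vwf* stood at 8023, 17371 and 11730 CPM against 8381 to 15726, median 11546 (log2 fold change 0.03, SE 0.26, edgeR adjusted p = 0.965). The Notch and arterial list had 0 of 5 called, with *Cxcl12* at 0.62 (edgeR adjusted p = 0.0806) and *Notch1* at 0.21 (edgeR adjusted p = 0.424). Beside the 8.29% of all genes that were higher and the 12.4% lower, the angiogenic list had 2 of 8 lower, leukocyte recruitment 2 of 7 lower, immediate early 2 of 7 lower, cell cycle 1 of 8 lower, fibroblast 1 of 5 lower, IGF 1 of 10 higher, and mural and Schwann 0 of 5 and 0 of 4. With lists this short, 1 call in 8 or 10 genes is near the share of all genes.

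**Figure D5:**
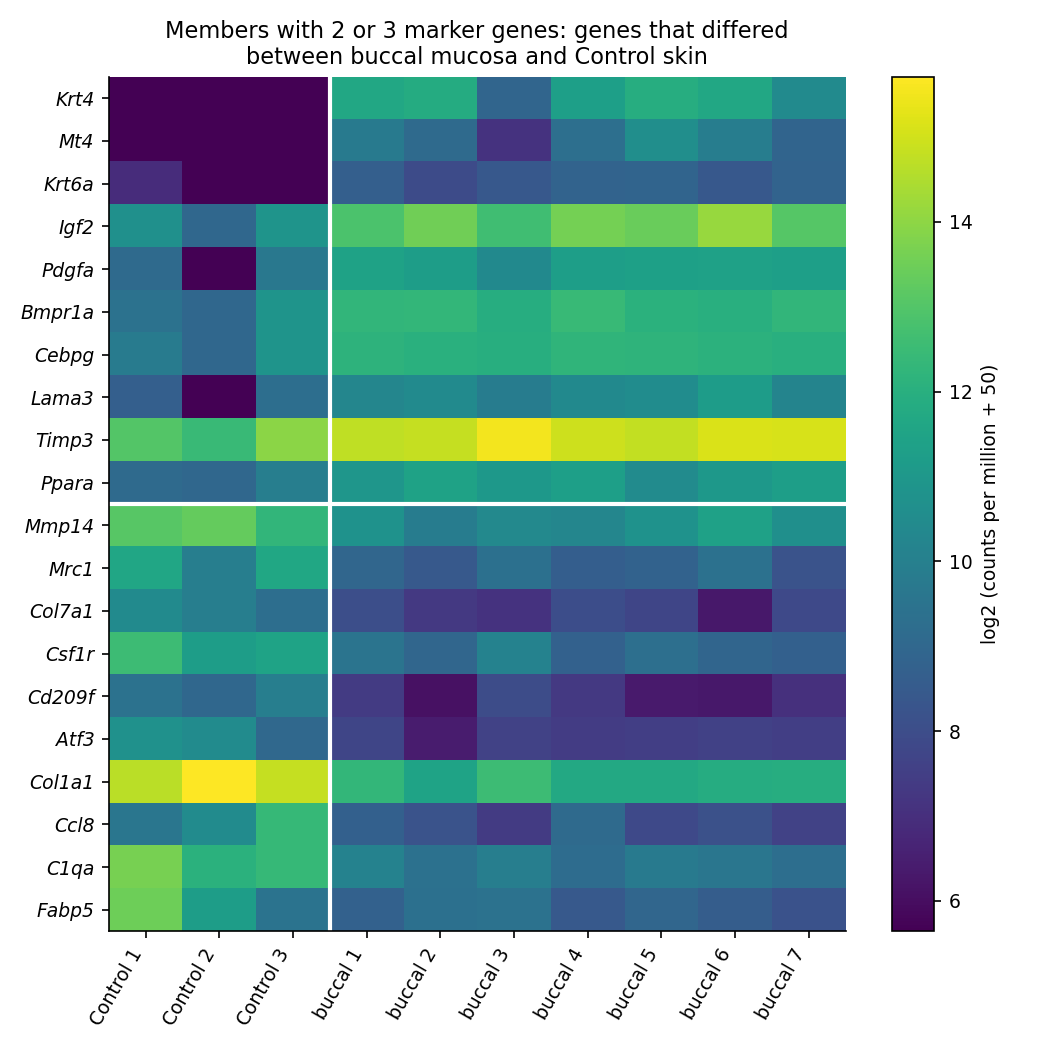
Levels of 20 named genes in multi-marker members as log2(CPM + 50) (color), in 3 Control and 7 buccal sections (columns). Genes higher in buccal members, such as *Igf2*, *Bmpr1a* and *Timp3*, and genes lower in them, such as *C1qa*, *Col1a1* and *Fabp5*, keep their direction in all 7 buccal sections.

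Set against the cells within 25 µm, the buccal change differed for 26 of 308 genes over all members (8.44%) and for 8 of 302 in multi-marker members (2.65%), all 8 among the 26. Of the 8, 7 differed below 0 and 1 above it. *C1qa*, *Col1a1*, *Bmpr1a* and *Bmpr2* were in neither set, so for these no difference from the change in the neighbors was detected. *Fabp5* went from a mean of 4810 to 424 CPM in multi-marker members and from 3534 to 3283 in their neighbors (difference of log2 changes -3.44, SE 0.68, edgeR adjusted p = 0.00596), and *Top2a* from 1171 to 131 in members and from 1456 to 1200 in neighbors (-2.48, SE 0.62, edgeR adjusted p = 0.0343). *Igfbp2* (-2.99) and the epithelial genes *Grhl3* (-4.70), *Dlx3* (-4.10), *Dsg2* (-4.47) and *Dsg3* (-3.75) differed too, and their mean level was higher in buccal sections in the neighbors and lower in the members, with *Dsg3* at 1038 and 4757 CPM in neighbors and 301 and 120 in members. These genes were named after their values were seen. Here too the neighbors include cells just below the marker sum and, for multi-marker members, members with 1 marker gene. The part of both in the neighbor levels was not tested.

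Over all members the genes whose change was larger in the members included *Igf2*, from 1245 to 10799 CPM in members and from 1231 to 4166 in neighbors (1.82, SE 0.48, edgeR adjusted p = 0.0257), *Timp3*, from 9590 to 33283 and from 5733 to 14415 (1.16, SE 0.35, edgeR adjusted p = 0.0456), *Cxcl12*, from 20073 to 29261 and from 7260 to 6595 (1.27, SE 0.38, edgeR adjusted p = 0.0423), and *Igfbp3*, from 5645 to 9934 and from 6364 to 4731 (1.82, SE 0.42, edgeR adjusted p = 0.0109). *Ackr1* was lower in both, from 1992 to 1417 in members and from 1358 to 375 in neighbors (2.04, SE 0.47, edgeR adjusted p = 0.0109). In multi-marker members none of these 5 genes passed, with differences of 1.20, 0.53, 0.73, 1.16 and 1.24 in the order given (edgeR adjusted p = 0.119 to 0.28). Under library size in place of TMM the 26 calls, 16 higher and 10 lower, became 17, 1 higher and 16 lower, so the calls above 0 rest on the scaling.

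In the day 4 wounds, levels in multi-marker members are given as CPM with 95% exact Poisson intervals, which cover counting error only, and no test was possible with 1 Control section. *Vwf* stood at 17283 CPM (16328 to 18279) in the Control wound and at 13565 (12918 to 14235) and 14853 (14401 to 15316) in the PITX1+ wounds. *Cd34*, *Adgrl4* and *Ephb4* lay close together, at 17650, 16427 and 16630 CPM for *Cd34*, 9044, 7683 and 8340 for *Adgrl4*, and 6515, 6030 and 5475 for *Ephb4*. *Ackr1* stood at 2558, 3003 and 3422 CPM. *Igfbp3*, an IGF carrier, stood at 10486 CPM (9745 to 11268) in the Control wound and at 15374 (14685 to 16087) and 30424 (29775 to 31083) in the PITX1+ wounds, 1.47-fold and 2.90-fold higher.

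The neutrophil chemokine *Cxcl1* stood at 396 CPM (263 to 572) in the Control wound and at 1760 (1532 to 2013) and 2916 (2718 to 3125) in the PITX1+ wounds, and *Cxcl16* at 1258, 1711 and 2658. The granulocyte growth factor *Csf3*, named after its values were seen, stood at 42.4 CPM, from 3 transcripts, in the Control wound and at 872 and 2028 in the PITX1+ wounds. *Cxcl12* went the other way, at 17071, 14823 and 8879 CPM, and so did *Hist1h1b* at 12238, 7815 and 6429 and *Top2a* at 4211, 3332 and 2490. In each of these genes the second PITX1+ wound was farther from the Control wound than the first. *Krt17* stood at 1625, 4343 and 3477 CPM and the keratinocyte list at 0.495%, 0.801% and 0.522% of RNA, far less than in multi-marker members of unwounded PITX1+ 1. The cell cycle list took 2.92%, 2.23% and 1.72% of RNA in the wounds, above all 7 unwounded skin sections in the Control wound and the first PITX1+ wound, and above all but PITX1+ 3 in the second. All other cells of the wounds moved in the same order. In them the cell cycle list took 1.79%, 1.42% and 0.874% of RNA, the leukocyte recruitment list, which holds *Cxcl1* and *Cxcl16*, 1.89%, 2.57% and 2.95%, and the leukocyte list 5.50%, 5.94% and 7.31%. The part of these cells in the values of members was not tested.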

How the data were processed

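Each slide had been deposited as the instrument wrote it. The authors deposited, without normalization, counts of transcripts and control calls per cell, and a table of decoded transcripts with a quality score for each. Positions in µm, areas and the mark for lying over the nucleus were deposited as other quantities. Cell outlines were not used. The software version was not given in the sources used here. The total count was between 136365 and 5581930 transcripts per section, and counts over few members, as in Control 2, carry the widest counting error.

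For each cell, the transcripts of 328 panel genes that reached a quality score of 20 were added up, and the sums equalled the deposited counts in 100.0% of cells. Cells were keyed by slide, as 25 identifiers occurred on more than 1 slide. Sections were chains of at least 2000 cells within 100 µm (wounds 200 µm), ordered by position. The condition of a section came from this order, and cell totals of the skin sections matched those listed by the study within 0.493%. No doublet caller was run.

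Counts were summed over members per section and tested in R 4.3.3 by the quasi-likelihood functions glmQLFit and glmQLFTest of edgeR 4.0.16, after filterByExpr and TMM scaling, with a threshold of 0.05 on the Benjamini-Hochberg adjusted p. The slide was a covariate for PITX1+, with none for buccal mucosa, and DESeq2 1.42.0 was the other tool. The 5 genes of the rule were left out of tests and CPM totals. Values per section were compared by two-sided exact permutation tests (scipy 1.17.1), adjusted over 12 values and without regard to the slide. Equal-depth shares are exact hypergeometric expectations after thinning cells of at least 20 transcripts to 20, with other cells left out. Tissue area was the number of 50 µm squares that hold a cell. The fits were tested on data simulated from multi-marker members, except that of the buccal change against neighbors. Most genes changed 2-fold were missed in every comparison simulated, and most of those changed 4-fold in the test of slides and in that of the PITX1+ change against neighbors.

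Named genes were those of the lists, and the 10 largest called changes in each direction whose sections did not overlap. The members and lists were chosen with earlier results of these data known. Alternatives covered the scaling, test, gene filter, quality and nuclear transcripts, depth and marker thresholds, neighbor distances, the slide covariate and each section left out. The subset with at least 2 marker genes was added after the data had been seen. A gene among those that differed from the neighbors is not reported here.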

Additional observations from a re-analysis of the deposited data

Results flagged for a closer look

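A section was marked where it stood far from the rest of its group of 4 to 10 by Dixon's criterion at 95%, which chance meets in about 5% of groups. Of 92 groups tested, 18 met it, several of them the same quantity over all members and over multi-marker members.

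Buccal 3 stood apart most often. Its share of members at equal depth was 5.50% (4.79% for multi-marker members), and its members lay 382 µm from epithelium (390 µm for multi-marker members). In its multi-marker members *Angptl4* stood at 2854 CPM, *Lamc1* at 3873 and *Timp3* at 46798, each above the other 6 buccal sections, and *Pdgfa* at 1310, below them. Buccal 6 stood apart with 4.02% of members holding *Ackr1* at equal depth (4.14% of multi-marker members) and with *Lama3* at 2332 CPM. Buccal 2 stood apart with *Atf3* at 35.8 CPM, below the rest, and *Sprr1a* at 913 CPM, above them.

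In PITX1+ 1 the keratinocyte genes *Dsc3* at 2410 CPM, *Dsg3* at 3264, *Krt6a* at 6192 and *Sprr1a* at 14519 in multi-marker members stood above the other 3 PITX1+ sections. In PITX1+ 4 the distance of multi-marker members to epithelium, 35.8 µm, stood above the other 3, which lay within 1 µm of each other.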

How the results depend on the processing

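The count of PITX1+ calls over all members (50) depended on few sections and cells. It was 5 in multi-marker members, 4 among the 14 genes left with a marker sum of at least 20% of a cell's transcripts, 0 without the slide covariate (also in multi-marker members), and 0 to 63 with a section left out, with 0 without Control 1 and 6 without PITX1+ 1. In multi-marker members, leaving out a section gave 0 (Control 1 or Control 2), 1 (PITX1+ 1), 5 (PITX1+ 3), 7 (PITX1+ 2), 10 (PITX1+ 4) and 17 (Control 3). The buccal count (46) was 82 by DESeq2, 77 without a gene filter, 23 over the nucleus, 2 with the marker sum of at least 20%, and 20 to 112 with a section left out (20 without Control 1, 30 without buccal 5, 112 without Control 3). In multi-marker members it was 25 without Control 1 and 105 without Control 3.

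For the PITX1+ change against neighbors (0), DESeq2 gave 3, a slide term for the kind of cell 19 (20 in multi-marker members), the multi-marker members 6, and sections left out 0 to 11 (5 without PITX1+ 1, 11 without PITX1+ 4). For the buccal change against neighbors (26), library size gave 17, no gene filter 10, any quality 6, cells with at least 20 transcripts 11, a marker sum of at least 5 gave 8, of at least 20% gave 0, neighbors within 15 µm gave 8 and within 50 µm 43, multi-marker members 8, and sections left out 0 to 55 (0 without Control 1, 7 without Control 2 or Control 3, 12, 8, 55 and 14 without buccal 1, 2, 3 and 7).

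Differences that changed sign were those far from any threshold. The mural excess was 2.71 points higher in PITX1+ sections for multi-marker members, and -5.82 to 3.24 with a section left out (0.512 without Control 3, 3.24 without PITX1+ 1). The *Ackr1* difference was -1.15 points with a marker sum of at least 5, and -0.651 to 1.59 with a section left out (-0.651 without Control 1, -0.313 without PITX1+ 3, -0.471 without PITX1+ 4). The buccal distance difference was 8.49 µm with an epithelial sum of at least 5. The cause was not tested for any of these. For the called genes of the lists and of the 10 largest changes in the fit over all members, no alternative value changed sign, with 140 on the same side of the threshold and 57 no longer past it for PITX1+, and 530 and 130 for buccal mucosa. Genes named otherwise were not followed through the alternatives. The test of slides could not be fitted without Control 3. No paired analysis was possible because the numbers of sections come from their position and not from the labels. Control depth limits the comparisons with unwounded Control skin.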
